A study of Mus musculus with 13 samples.

Results

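The genes described here are a signal and its brakes: fibroblast growth factor 4 (Fgf4), a receptor that can bind it (Fgfr2), and 4 feedback inhibitors of the ERK kinase cascade (Dusp6, Dusp9, Spry2 and Spry4). The rule named 7 genes by symbol, and 6 of the 15176 genes in the deposited table carried such a symbol. Fgfr1 was the other named gene and was not analysed here. The values come from 13 RNA sequencing libraries of a mouse reprogramming series that used small-molecule mixes. Mouse embryonic fibroblasts without treatment (MEF, n = 3) were the start. Cells negative for the Oct4-GFP reporter had received VC6TF (n = 2). Reporter-positive clusters and colonies had received VC6TF+Z (1 library for each stage). The treated samples ended with the established induced lines 6 and 11 (CiPSC, treatment label VC6TFMB+Z, n = 2 with 1 library for each line). All of these carried the strain label C57xICR, whereas the untreated embryonic stem cells (ESC, n = 4) were of strain 129, so strain and cell type cannot be told apart in comparisons with ESC. By title ESC 1 and 2 were ESCs1 and ESCs2, whereas ESC 3 and 4 were R1 and R1 2. The titles do not say whether these are the same line. CiPSC and ESC were kept on mitomycin C-treated MEF feeder layers, and the labels do not give the composition of the ESC medium. No label says whether replicates came from separate cultures, so p-values measure only the spread between these libraries.

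Fibroblast growth factors bind receptor tyrosine kinases of the FGFR family on the cell surface. The active receptor recruits adaptors and RAS, which switch on the RAF, MEK and ERK kinases. ERK activity induces its own inhibitors: sproutys act between the receptor and RAF, and dual-specificity phosphatases such as Dusp6 and Dusp9 remove the activating phosphates from ERK. In mouse embryonic stem cells Fgf4 is made by the cells themselves, is under the control of Oct4 and Sox2, and drives ERK signalling towards exit from the naive state.

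Values are RPKM, reads scaled to gene length and sequencing depth. In 10 libraries the kilobases counted the whole gene span, introns included, and the estimated depth was 8.86 to 17.6 M reads. In the other 3 (ESC 4 and both CiPSC lines) they behaved as exon lengths and the depth is unknown. Apart from 1 check of what the Fgfr2 value counts and the alternative fit without a length-scale term, those 3 are compared only with one another. The 7 gene-span libraries MEF 1 and 2, GFP-negative 1 and 2, clusters and ESC 1 and 2 gave unmeasured genes as exact 0 and summed to 67647 to 80708 RPKM. The other 3 (MEF 3, colonies and ESC 3) gave 0.001 in its place and summed to 119415 to 164054 RPKM. The labels were checked against marker genes. ESC 1 to 3 had all 9 pluripotency markers at 1 RPKM or more. The clusters had none of them, with 0.260 RPKM of Pou5f1, the gene of Oct4, against their label as Oct4-GFP positive. The clusters also held 24.6 RPKM of Kdr, an endothelial receptor gene (1.15 or less in the other gene-span libraries), and 10.0467 of Otx2. Of 4 measured endothelial markers only Kdr reached 1 RPKM there, with Pecam1, Cdh5 and Tek at 0.00784 or less. Of 7 measured markers of primed epiblast, 2 reached 1 RPKM in the clusters, Otx2 and Lefty1 (3.12), while Nodal was at 0. The colonies had 124 RPKM of Pou5f1 and 0.0418 of Nanog, and all 9 measured markers of extraembryonic endoderm were at 1 RPKM or more (summed level 977, against 6.15 to 20.2 in ESC 1 to 3). MEF 3 held more of the macrophage and blood markers (summed level 200, against 18.7 and 29.9 in MEF 1 and 2). In bulk libraries fewer cells of a type and less RNA per cell cannot be told apart.

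The start regions of the ligand and of the phosphatase that was highest in the clusters are shown, as an ESC-high gene and a gene high in the treated cells before the colony stage. RefSeq start regions (GRCm38.p6, 250 bases before to 50 after the start) were used for 4 of the 6 genes. Those of Dusp9 and Spry4 were not analysed. Capitals mark the letters GGGCGG or their reverse complement, the Sp1 box. Fgf4 lies at chr7:144861136-144861435 on the plus strand and Dusp6 at chr10:99262981-99263280 on the plus strand.
Fgf4: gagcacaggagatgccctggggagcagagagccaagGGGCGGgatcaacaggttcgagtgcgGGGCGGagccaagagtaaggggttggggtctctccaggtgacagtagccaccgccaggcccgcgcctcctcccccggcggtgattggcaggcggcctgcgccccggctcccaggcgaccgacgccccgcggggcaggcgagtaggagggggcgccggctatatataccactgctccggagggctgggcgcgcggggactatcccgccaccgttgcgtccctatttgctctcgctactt
Dusp6: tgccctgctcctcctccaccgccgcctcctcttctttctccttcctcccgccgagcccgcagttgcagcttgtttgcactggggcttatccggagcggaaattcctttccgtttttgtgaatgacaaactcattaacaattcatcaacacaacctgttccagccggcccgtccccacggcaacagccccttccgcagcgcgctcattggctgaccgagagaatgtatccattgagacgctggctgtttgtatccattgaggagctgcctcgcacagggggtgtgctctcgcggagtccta
The Fgf4 window held 2 Sp1 boxes, whose first bases lie at −214 and −188 from the start, and the Dusp6 window held 0. Of 32851 RefSeq start windows 35.7% hold this box. The octamer ATGCAAAT (1.74% of windows), the ETS core CCGGAA (14.9%), the Sox core ACAATG (12.6%) and TATAAA, a form of the TATA box (13.6%), had 0 matches in either window. Only these exact letters were searched, on both strands. Sequence outside the windows was not searched, so control of Fgf4 by Oct4 and Sox2 was not tested. The Fgf4 window holds the letters TATATA, a related run that this search did not cover. GC content was 69.7% for Fgf4 and 57.3% for Dusp6, beside a median of 52.7% over all windows.

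Among the gene-span libraries the ligand Fgf4 was highest in ESC, with 53.3, 41.2 and 33.6 RPKM in ESC 1, 2 and 3. MEF 1 and 2 stood at 0 and MEF 3 at 0.001, the value for unmeasured genes. The ESC values rested on 2719, 1915 and 1292 estimated reads, and 3 reads would have been 0.0441 to 0.0811 RPKM in the MEF libraries. The lowest ESC library was thus at least 414.5-fold higher than any MEF library (floor of 3 reads per library; counting error only). The log2 change of RPKM + 1 was 5.42 ± 0.57 (SE, limma adjusted p = 0.000355). Its size depends on the pseudocount, and Fgf4 had passed the filter on low values only through libraries in which it was high.

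Reprogramming intermediates differed in Fgf4. GFP-negative 1 stood at 0, while GFP-negative 2 held 5.32 RPKM (95% Poisson interval 4.64 to 6.10, 211 estimated reads), at least 75.3-fold above the floor of GFP-negative 1. The mean of ESC 1 to 3, 42.7 ± 9.95 RPKM (SD, n = 3), was 8.03-fold the level of GFP-negative 2. In GFP-negative 2 none of the 9 pluripotency markers reached 1 RPKM, with Pou5f1 at 0.429 and Nanog at 0.122. The clusters had 2 estimated reads (0.0581 RPKM, interval 0.00708 to 0.211). The colonies stood at 0.001, and the lowest ESC library was at least 433.1-fold higher than their floor of 0.0776 RPKM. Of the pluripotency markers in the colonies, Pou5f1 lay within the ESC range, while Nanog (0.0418 RPKM), Tdgf1 (0.258), Utf1 (1.96) and Sox2 (2.80) lay below every ESC library. Their part in the Fgf4 level was not tested.

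**Figure D1:**
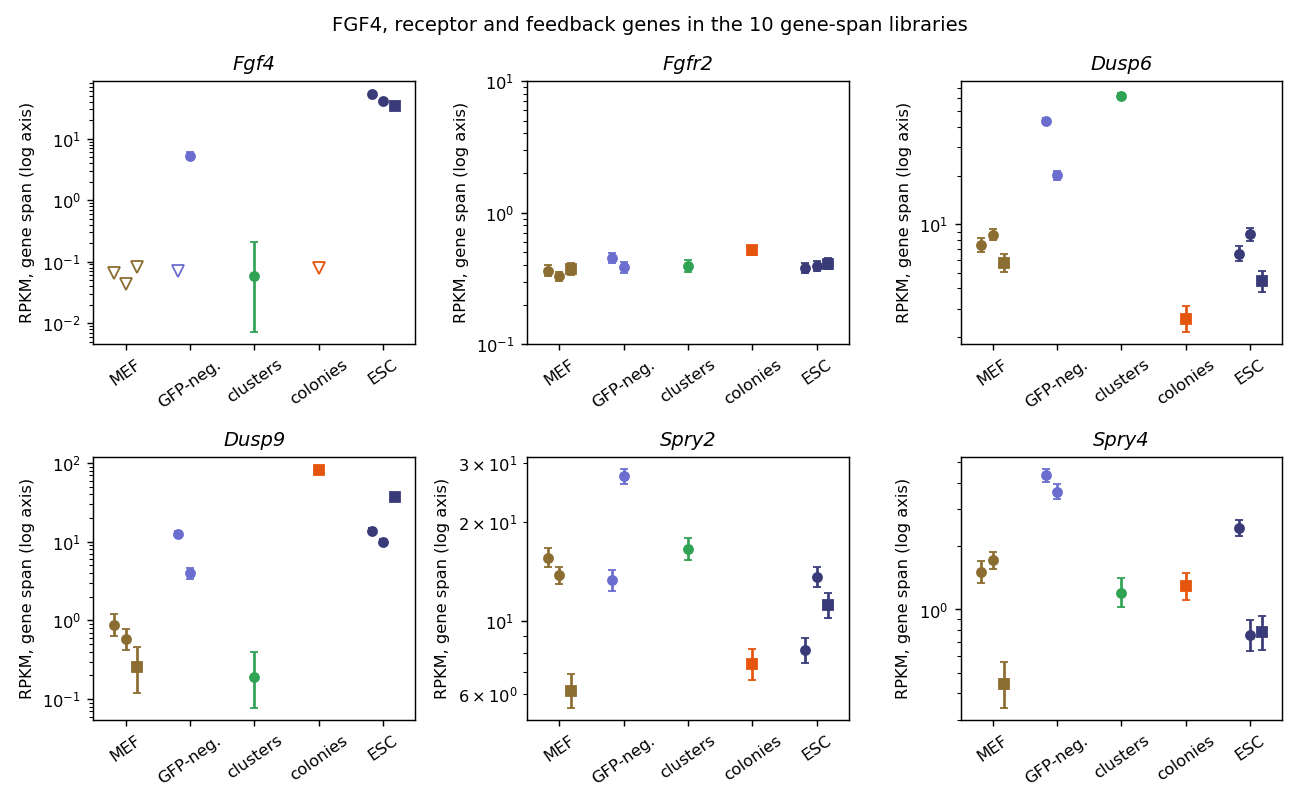
RPKM per kilobase of gene span (log axis) in each of the 10 gene-span libraries by group, with bars for the 95% Poisson interval of the estimated reads; circles are libraries with exact 0 for unmeasured genes, squares those with 0.001, and open triangles mark the floor of 3 reads where 0 reads were estimated. Fgf4 is at 33.6 to 53.3 RPKM in ESC, Dusp6 peaks at 62.2 in the clusters, Dusp9 peaks at 82.0 in the colonies, and Fgfr2 stays between 0.329 and 0.517.

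Of the receptors, Fgfr2 had nearly one level in every gene-span library. It was 0.362, 0.329 and 0.372 RPKM in MEF 1, 2 and 3, 0.451 and 0.385 in the GFP-negative libraries, 0.392 in the clusters, 0.517 in the colonies, and 0.382, 0.393 and 0.409 in ESC 1, 2 and 3. These values rested on 362 to 605 estimated reads. Every MEF library lay below every ESC library, ESC and GFP-negative overlapped, and the colonies lay above all others. The coefficient of variation over the 10 libraries was 12.97%, the 3rd smallest of 11120 genes with a mean above 0.2 RPKM, for which the median was 81.4%. Gnb1 (9.57%) and Canx (12.7%) were the only genes with a smaller one. Fgfr2 was under 1 RPKM everywhere and did not pass the filter on low values. Without the filter its log2 change was 0.04 ± 0.04 for ESC against MEF (limma adjusted p = 0.559), and it was not called in any of the 4 comparisons. Its value counts the gene span: ESC 1 to 3 had a median of 41.0 reads in the span for each M reads of depth, while ESC 4 had 1.32 in exons on the same basis. The ratio of 30.98 lay at the 98.0th percentile of 10735 genes, with a median ratio of 1.82. Where in the span the reads lay cannot be read from the table, so the gene-span value is not a measure of Fgfr2 mRNA alone.

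The other FGF receptors showed larger differences between libraries. Fgfr3 was 5.15 RPKM in the clusters, 1.01 in the colonies, 1.25 in MEF 3 and 0.247 or less in the other gene-span libraries. Fgfr4 was 2.40 RPKM in the colonies and 0.359 or less in each other gene-span library, and the co-receptor gene Klb was 2.47 in the colonies and 0.0285 or less elsewhere in these libraries. Both colonies values coincide with the endoderm markers given above, whose part in them was not tested.

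Dusp6, a cytoplasmic ERK phosphatase, was highest in the treated cells before the colony stage. It was 62.2 RPKM in the clusters (2347 estimated reads) and 43.6 and 20.1 in GFP-negative 1 and 2. MEF 1, 2 and 3 had 7.45, 8.60 and 5.79, ESC 1, 2 and 3 had 6.57, 8.65 and 4.43, and the colonies 2.60. Both GFP-negative libraries lay above every MEF and ESC library, while MEF and ESC overlapped, and the colonies lay below all others. The clusters were 8.55-fold above the MEF mean and 24.0-fold above the colonies, without a replicate check. A link between the Kdr and Otx2 levels of this library and its Dusp6, Dusp4 and Fgfr3 levels was not tested. Between GFP-negative cells and MEF the log2 change was 1.90 ± 0.39 (limma adjusted p = 0.0193). Between ESC and GFP-negative cells it was −2.06 ± 0.39 (limma adjusted p = 0.00504). Between ESC and MEF it was −0.16 ± 0.35, with a 95% interval of −0.95 to 0.63 (limma adjusted p = 0.783).

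Dusp9, a phosphatase that acts on ERK and is known from stem cells and placenta, had another order. It was 82.0 RPKM in the colonies (3388 estimated reads), 36.8 in ESC 3, and 13.9 and 9.94 in ESC 1 and 2. GFP-negative 1 and 2 had 12.7 and 3.97, MEF 1, 2 and 3 had 0.885, 0.578 and 0.254, and the clusters 0.192 (7 estimated reads, interval 0.0770 to 0.395). The ranges of ESC and GFP-negative overlapped, and both lay above all MEF libraries. Dusp9 rose from MEF to ESC by a log2 change of 3.56 ± 0.52 (limma adjusted p = 0.00188) and from MEF to GFP-negative cells by 2.41 ± 0.58 (limma adjusted p = 0.0362). The second call was lost in 9 of 22 alternatives (limma adjusted p 0.0538 to 0.182). Each MEF library was under 1 RPKM, so Dusp9 had passed the filter on low values only through libraries in which it was higher. ESC against GFP-negative was 1.15 ± 0.58 (limma adjusted p = 0.16). ESC 3 and the colonies share the 0.001 format, and within it the colonies were 2.23-fold above ESC 3. Between colonies and clusters the ratio was 428, with counting bounds of 208 and 1065 from the 7 reads of the clusters.

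The balance of the 2 phosphatases inside a library does not depend on scaling between libraries. The log2 ratio of Dusp9 to Dusp6, set to exon length, was −2.93, −3.75 and −4.36 in MEF 1, 2 and 3 and −1.64 and −2.19 in GFP-negative 1 and 2. It was −8.20 in the clusters, 5.13 in the colonies, and 1.23, 0.35 and 3.20 in ESC 1, 2 and 3. Dusp6 thus exceeded Dusp9 in every MEF, GFP-negative and cluster library, and Dusp9 exceeded Dusp6 in the colonies and every ESC library. ESC averaged 1.59 ± 1.46 and MEF −3.68 ± 0.72 (SD, n = 3 each; two-sided exact permutation p = 0.1, the smallest that 3 against 3 allows, adjusted p = 0.2 over the 2 ratios computed).

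Spry2, a sprouty that restrains receptor tyrosine kinase signalling, was expressed in all stages. It was 27.4 and 13.3 RPKM in GFP-negative 2 and 1, 16.5 in the clusters, 7.40 in the colonies, and 15.6, 13.7 and 6.15 in MEF 1, 2 and 3. ESC 1, 2 and 3 had 8.15, 13.6 and 11.2. The ranges of MEF, GFP-negative and ESC overlapped, and no difference passed the test. The log2 changes were −0.03 ± 0.41 for ESC against MEF (95% interval −0.96 to 0.89, limma adjusted p = 0.963), 0.74 ± 0.46 for GFP-negative against MEF (limma adjusted p = 0.348) and −0.78 ± 0.46 for ESC against GFP-negative (limma adjusted p = 0.22).

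Spry4, a second sprouty induced by ERK, was highest in GFP-negative cells at 4.33 and 3.63 RPKM. MEF 1, 2 and 3 had 1.51, 1.72 and 0.443, the clusters 1.20, the colonies 1.29, and ESC 1, 2 and 3 had 2.44, 0.754 and 0.778. Both GFP-negative libraries lay above all other gene-span libraries, whose groups overlapped. The log2 change of GFP-negative against MEF was 1.21 ± 0.38 and was not called (limma adjusted p = 0.085). ESC against GFP-negative was −1.17 ± 0.38 and was called (limma adjusted p = 0.0465), but 15 of 22 alternatives ended the call. The log2 ratio of Spry2 to Spry4 averaged 2.80 ± 1.32 over ESC 1 to 3 and 2.94 ± 0.40 over MEF (SD, n = 3; two-sided exact permutation p = 1).

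Among the 6 genes, 5 passed the filter on low values. Fgf4 and Dusp9 rose from MEF to ESC and none fell, where 7.95% of 10647 tested genes rose, 7.97% fell and 15.9% changed. Dusp6 and Dusp9 rose from MEF to GFP-negative cells, where 3.53% of tested genes rose, 4.09% fell and 7.62% changed. Fgf4 was higher and Dusp6 and Spry4 lower in ESC than in GFP-negative cells, where 14.3% were higher, 8.35% lower and 22.7% called in all. These comparisons share samples, and Fgf4 and Dusp9 had passed the filter only through libraries outside MEF. With only the 7 exact-zero libraries neither Dusp6 nor Dusp9 was called between GFP-negative cells and MEF, with Dusp6 at 1.77 on the log2 scale (limma adjusted p = 0.0724) and Dusp9 at 2.26 (0.0671). Dusp6 lost that call in 4 of 22 alternatives (limma adjusted p 0.0529 to 0.0858): this one, without the length-scale term (0.0626), without MEF 1 (0.0529) and without GFP-negative 1 (0.0858). The alternatives that ended the Dusp9 call included each fit without MEF 1, 2 or 3, GFP-negative 1, ESC 1 or a CiPSC line. In a fit without GFP-negative 1 that arm is 1 library, whose spread is assumed to be that of the other groups.

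**Figure D2:**
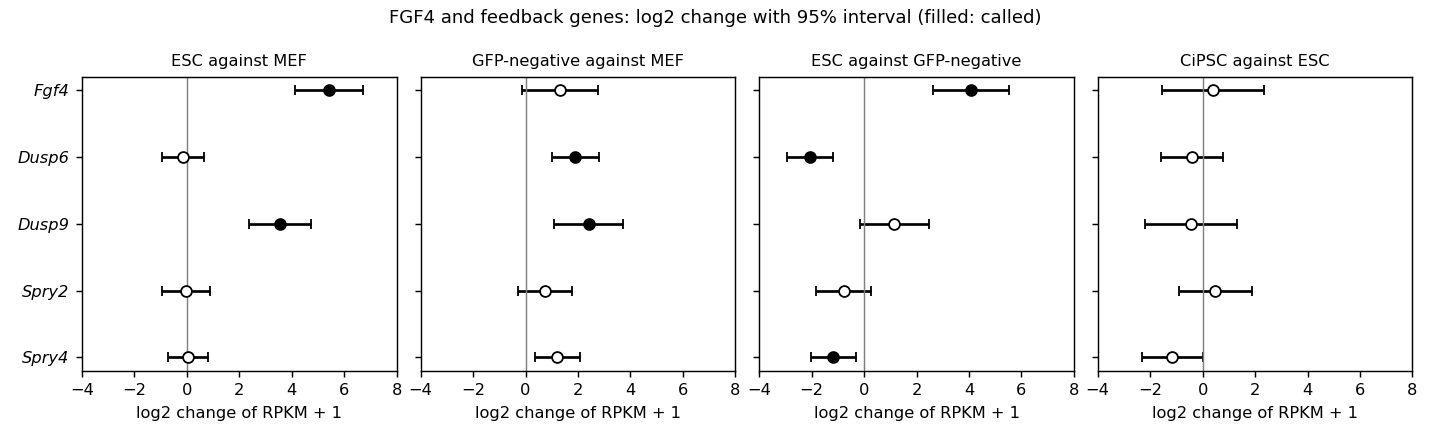
Log2 change of RPKM + 1 (x axis) of the 5 tested genes in 4 comparisons, with 95% intervals from limma; filled points were called (adjusted p under 0.05, with a log2 change of at least 1 in size). Fgf4 and Dusp9 are filled for ESC against MEF (5.42 and 3.56), Dusp6 and Dusp9 for GFP-negative against MEF, and no point is filled for CiPSC against ESC.

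Without a test, the clusters differed from the GFP-negative mean by an absolute log2 difference of 1 or more in Fgf4 (−1.25), Dusp6 (1.05), Dusp9 (−2.79) and Spry4 (−1.17). The same held for 24.6% of tested genes (11.4% higher, 13.2% lower). For Fgf4 that mean joins 0 and 5.32 RPKM. The colonies differed from the ESC mean in Fgf4 (−5.42), Dusp6 (−1.03) and Dusp9 (2.18), as did 24.1% of tested genes (14.9% higher, 9.24% lower).

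Other genes of the pathway were taken from lists, with the 6 genes above left out. Of 17 measured genes of the FGF family only 4 were tested. Fgf17 was 1.18, 1.20 and 0.921 RPKM in ESC 1, 2 and 3 and 0.0171 or less in the other gene-span libraries. It rose from MEF to ESC (1.06 ± 0.09, limma adjusted p = 9.09e-05) and none fell, where 7.95% of all tested genes rose and 7.97% fell. With 4 genes, a count of 1 cannot be set apart from these shares, and Fgf17 had passed the filter only through ESC and CiPSC libraries. Fgf11 rose from MEF to GFP-negative cells (1.74 ± 0.44, limma adjusted p = 0.0428), where 3.53% of all tested genes rose. The call was lost without the filter (limma adjusted p = 0.0632), and Fgf11 had passed the filter only through GFP-negative and clusters libraries. Fgf7, a growth factor that fibroblasts secrete for epithelial cells, was lower in ESC than in GFP-negative cells (−1.42 ± 0.14, limma adjusted p = 0.000206). It was 4.34 RPKM in the clusters and 2.03 and 1.52 in GFP-negative 1 and 2, the only libraries through which it had passed the filter. Fgf3 was 2.51 RPKM in the colonies and 0.157 or less in the other gene-span libraries.

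Receptors and co-receptors other than Fgfr2 fell in 3 of 9 tested genes from MEF to ESC and rose in 0, where 7.97% of all tested genes fell and 7.95% rose (median log2 change −0.95, beside 0.14 over all tested genes). Those that fell were the heparan sulphate proteoglycans Sdc3 (−2.29 ± 0.14, limma adjusted p = 2.45e-05) and Gpc1 (−1.62 ± 0.47, limma adjusted p = 0.0359), and Fgfrl1, a receptor without a kinase domain (−1.48 ± 0.42, limma adjusted p = 0.0332). Without the filter only Sdc3 kept its call, with Fgfrl1 at an adjusted p of 0.051 and Gpc1 at 0.0512 (limma). From MEF to GFP-negative cells Sdc1 rose (2.34 ± 0.34, limma adjusted p = 0.00414) and Sdc3 fell (−1.80 ± 0.16, limma adjusted p = 0.000339). Sdc1 was 24.3 and 26.1 RPKM in GFP-negative 1 and 2 and 2.50 to 6.48 in MEF. Some markers of other cell types differed between the same groups. The summed level of 4 keratinocyte markers was 7.44 and 16.1 RPKM in GFP-negative 1 and 2 and 0.408 to 5.66 in MEF, with Krt5 higher (2.13 ± 0.42, limma adjusted p = 0.017). Krt14 was not called (limma adjusted p = 0.235), and Krt10 was 0 in the GFP-negative libraries and 0.226 to 0.713 RPKM in MEF. The endoderm factor gene Foxa2 was also higher (2.09 ± 0.25, limma adjusted p = 0.00139). Foxa2 had passed the filter only through GFP-negative and colonies libraries. The summed level of 9 extraembryonic endoderm markers was 114 and 93.3 RPKM in GFP-negative 1 and 2 and 192 to 265 in MEF. Most of each sum was Sparc, at 85.8 and 55.8 RPKM in GFP-negative 1 and 2 and 167 to 230 in MEF. Over the 9 genes the median log2 change was 0.02, beside −0.13 over all tested genes. Of these markers Foxa2 was called higher and none was called lower. The part of these markers in the changes of GFP-negative cells was not tested. Of 9 tested genes of heparan sulphate synthesis, Ndst1 fell from MEF to ESC (−1.03 ± 0.21, limma adjusted p = 0.00902) and none rose. From MEF to GFP-negative cells Glce (−1.95 ± 0.31, limma adjusted p = 0.00685) and Ndst2 (−1.67 ± 0.33, limma adjusted p = 0.0179) fell and none rose. Over all tested genes 7.97% fell in the first comparison, near the share of 1 in 9, and 4.09% fell in the second. In ESC against GFP-negative cells 4 of 9 receptor and co-receptor genes were lower and none higher, where 8.35% of all tested genes were lower (median −0.62, beside 0.25), among them Sdc1 (−3.22 ± 0.34, limma adjusted p = 0.000319). Sdc4, another syndecan, was 21.2 RPKM in the colonies and 2.23 to 6.13 in ESC 1 to 3.

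In the relay from receptor to ERK, 1 of 19 tested genes rose from MEF to ESC and none fell, no larger a share than the 7.95% and 7.97% over all tested genes (median 0.15, beside 0.14 over all tested genes). It was the docking protein gene Gab1, with 4.36, 2.82 and 2.13 RPKM in ESC 1, 2 and 3 and 0.110 to 0.344 in MEF (1.68 ± 0.23, limma adjusted p = 0.00131). Gab1 had passed the filter only through ESC and CiPSC libraries. Gab1 was also higher in ESC than in GFP-negative cells (1.79 ± 0.25, limma adjusted p = 0.0014). Mapk3, the gene of ERK1, was 23.4 RPKM in the colonies, 3.36 to 7.52 in ESC 1 to 3 and 17.4 in MEF 3, beside 5.65 and 6.56 in the other MEF libraries. Mapk3 was not called in any of the 4 tested comparisons.

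Of 7 other membrane inhibitors tested, 1 fell from MEF to ESC and none rose, and from MEF to GFP-negative cells 1 rose and 1 fell. Over all tested genes 7.97% fell in the first comparison, and 3.53% rose and 4.09% fell in the second. With 7 genes, a count of 1 cannot be set apart from these shares. Spry1, a sprouty of the same family, was 24.7, 25.2 and 12.1 RPKM in MEF, 0.0582 and 1.12 in GFP-negative cells, 2.48 in the clusters, 0.792 in the colonies and 1.99 to 3.94 in ESC 1 to 3. It fell from MEF to GFP-negative cells (−3.78 ± 0.42, limma adjusted p = 0.00107) and from MEF to ESC (−2.32 ± 0.38, limma adjusted p = 0.00332). Spred1, a RAS pathway inhibitor, rose from MEF to GFP-negative cells (1.59 ± 0.32, limma adjusted p = 0.0189). Spred3 was 9.89 RPKM in GFP-negative 2 and 7.48 in the clusters, and 0.336 in GFP-negative 1. It also differed between ESC libraries, with 3.03 in ESC 2 and 0.171 and 0.281 in ESC 1 and 3. In MEF it was 0.452 to 1.26 and in the colonies 0.145. Spred3 was not called in any tested comparison. Of 5 other MAPK phosphatases tested, Dusp7 fell from MEF to ESC (−1.49 ± 0.44, limma adjusted p = 0.0378) and none rose, where 7.97% of all tested genes fell. With 5 genes, a count of 1 cannot be set apart from this share. The Dusp7 call was lost without the filter (limma adjusted p = 0.0543). Dusp4, a nuclear ERK phosphatase, was 17.3 RPKM in the clusters and 0.245 to 4.90 in the other gene-span libraries.

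Among transcription factor and early response genes of the ERK pathway, 2 of 12 tested rose and 6 fell from MEF to ESC. Over all tested genes 7.95% rose and 7.97% fell (median of the 12 genes −1.21, beside 0.14). The ETS factors Etv5 (2.73 ± 0.33, limma adjusted p = 0.000717) and Etv4 (1.18 ± 0.36, limma adjusted p = 0.0448) rose, and Etv4 lost its call without the filter (0.0608). Etv5 and Etv4 were under 1 RPKM in every MEF library and had passed the filter only through other libraries. The immediate early genes Egr1 (−5.45 ± 0.29, limma adjusted p = 1.45e-05) and Fos (−4.81 ± 0.39, limma adjusted p = 9.07e-05) fell, as did Ier3 (−2.61 ± 0.34, limma adjusted p = 0.00106). From MEF to GFP-negative cells 3 rose and 1 fell, where 3.53% of all tested genes rose and 4.09% fell (median 0.54, beside −0.13). Ier3, an early response gene, was 201 and 210 RPKM in GFP-negative cells, 20.7 to 40.7 in MEF, 56.9 in the clusters and 11.6 in the colonies (2.63 ± 0.38, limma adjusted p = 0.00414). Phlda1 (2.72 ± 0.50, limma adjusted p = 0.0131) and Egr2 (2.03 ± 0.44, limma adjusted p = 0.0245) also rose, and Ier2 fell (−3.69 ± 0.69, limma adjusted p = 0.0138). In ESC against GFP-negative cells 2 were higher and 6 lower, where 14.3% of all tested genes were higher and 8.35% lower (median −2.12, beside 0.25), with Etv5 (2.18 ± 0.37, limma adjusted p = 0.00304) and Ier2 (3.74 ± 0.69, limma adjusted p = 0.00478) higher. Phlda1 was 19.5 and 77.5 RPKM in GFP-negative 1 and 2, 48.6 in the clusters, 17.6 in the colonies and 1.27 or less in ESC 1 to 3. Fos was 2.62 RPKM in the clusters and 27.0 and 20.4 in the GFP-negative libraries, and Junb 1.74 in the clusters and 8.0 and 15.1 there. Etv5 was 4.32 to 11.0 RPKM in ESC 1 to 3 and 0.0784 in the colonies.

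**Figure D3:**
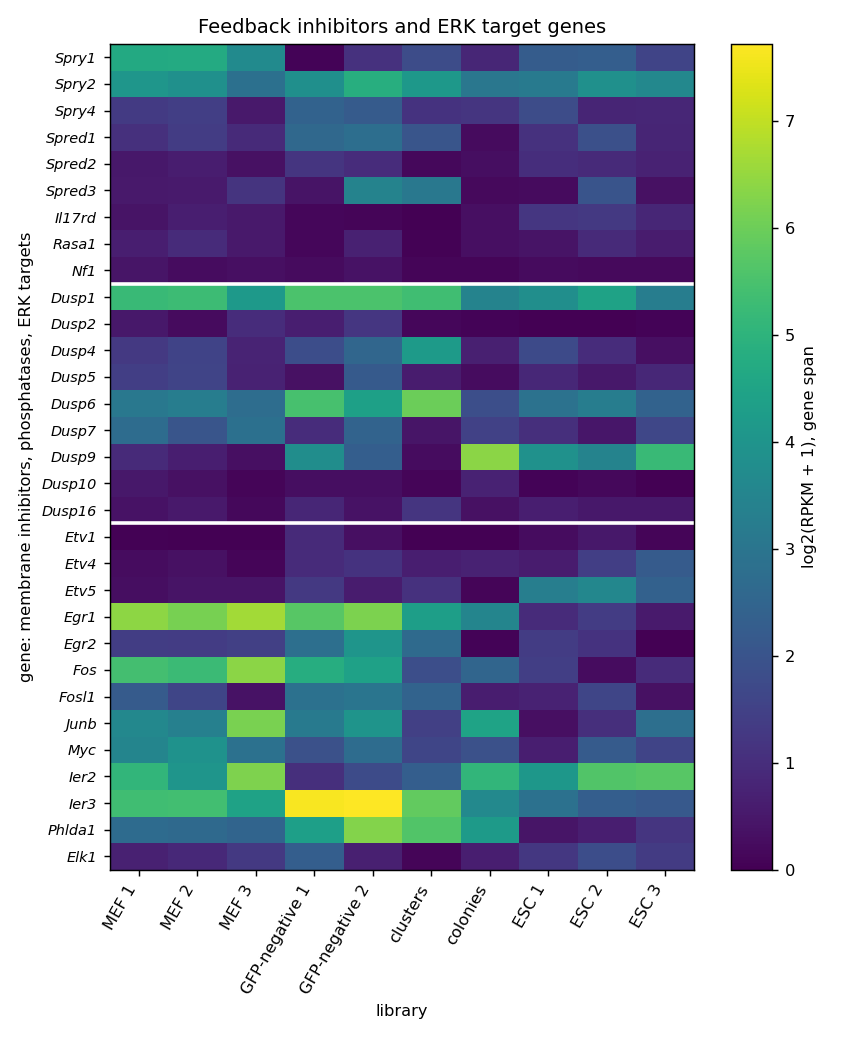
Heat map of log2(RPKM + 1), per kilobase of gene span, for membrane inhibitors (top), MAPK phosphatases (middle) and ERK target genes (bottom) in the 10 gene-span libraries. Dusp6 and Ier3 are bright in the GFP-negative and cluster columns, Dusp9 in the colonies (82.0 RPKM), Spry1 in MEF, and Etv5 in ESC.

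Over the 10 gene-span libraries, which differ in depth and in table format, the pattern of Fgf4 was most like those of Cnot1 (Pearson r = 0.987), Nfyb (0.984) and Sgol2 (0.983), on log2(RPKM + 1). Dusp6 was most like Gja1 (0.964), Fam171a1 (0.963) and Dcbld2 (0.963). Dusp9 was most like Hdac6 (0.923), Zbtb10 (0.906) and Tmtc1 (0.903). Spry2 was most like Uhrf1bp1l (0.909), D5Ertd579e (0.885) and Zfp148 (0.877), and Spry4 most like 4933426M11Rik (0.937), Slitrk5 (0.918) and Atad1 (0.911). Among the 5 genes themselves r was highest for Dusp6 and Spry2 (0.6001) and lowest for Dusp6 and Dusp9 (−0.42). These correlations describe the libraries and carry no test.

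In the 3 exonic libraries both induced lines expressed the ligand and all 4 feedback genes above 1 RPKM, as ESC 4 did. Fgf4 was 24.8 and 22.4 RPKM in CiPSC lines 6 and 11 and 17.8 in ESC 4. Dusp9 was 18.1 and 16.3 against 23.8, Dusp6 3.0004 and 3.19 against 4.41, and Spry2 12.2 and 14.1 against 9.14. Spry4 was 1.57 and 2.45 against 5.63, and Fgfr2 0.182 and 0.179 against 0.128. Both lines lay above ESC 4 in Fgf4, Spry2 and Fgfr2 and below it in Dusp6, Dusp9 and Spry4. Per kilobase of exon the order in both lines was Fgf4, Dusp9, Spry2, Dusp6, Spry4, Fgfr2.

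None of the 5 tested genes was called between CiPSC and ESC (limma, 0 with an unadjusted p under 0.05), where 0.16% of tested genes were called (0.122% higher, 0.0376% lower) and 507 had an unadjusted p under 0.05. The log2 change of Spry4 was −1.16 with a 95% interval of −2.32 to 0.01, that of Fgf4 0.38 (−1.56 to 2.33) and that of Dusp9 −0.45 (−2.22 to 1.33). ESC 4 is 1 library, and its spread was assumed to be that of the other groups. With the 3 exonic libraries alone, a fit whose spread rests on the difference between the 2 lines, Spry4 was called lower in CiPSC (limma adjusted p = 1.46e-06). The log2 ratio of Dusp9 to Dusp6 was 2.60 and 2.35 in the lines and 2.43 in ESC 4. The log2 ratio of Spry2 to Spry4 was 2.96 and 2.53 in the lines and 0.70 in ESC 4.

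**Figure D4:**
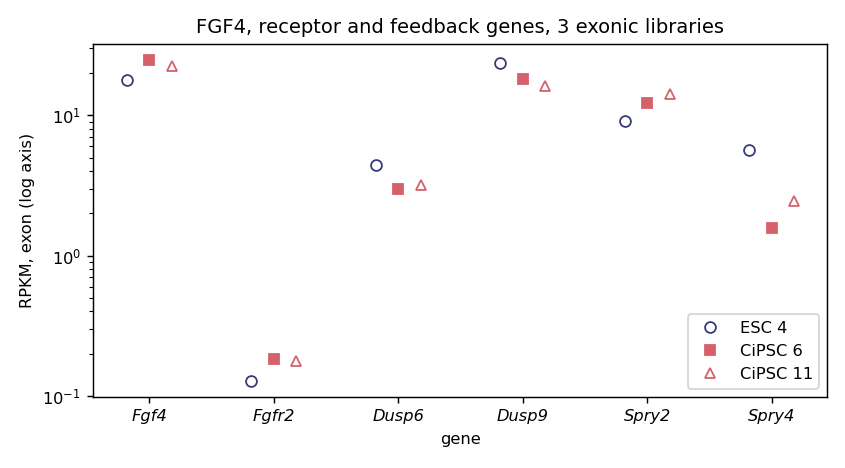
RPKM per kilobase of exon (log axis) of the 6 genes in ESC 4 and CiPSC lines 6 and 11, 1 point per library. Both lines lie on the same side of ESC 4 for each gene, with a wide gap for Spry4 (1.57 and 2.45 against 5.63).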

How the data were processed

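RNA from 13 libraries had been sequenced. Per the file headers, the authors deposited RPKM values, with 1 column for each library. The submitters' processing notes name TopHat 1.3.0 and, as genome build, mm9. How reads were counted, with which gene models, strand setting and filters, is not given in the sources used here. Of 15184 rows, 8 that shared 1 symbol were left out, and 0 columns were unused.

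Gene lengths came from GENCODE M21 (GRCm38) and, for estimated reads of the 6 genes, from RefSeq spans, used for lengths only. In 10 libraries 82.5 to 85.1% of low values times the gene span were whole multiples of 1 step (tolerance 0.05 steps), which gave the depth. In the other 3 libraries 12.2 to 14.2% were, and the summed products were 2.75 to 2.79 reads per sequenced read. These were taken to be per kilobase of exon. Poisson intervals (95%) and floors of 3 reads cover counting error only.

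All tests used log2(RPKM + 1), in R 4.3.3 and limma 3.58.1 over all 13 libraries, fitting each group and the length scale; the prior variance followed mean expression. P-values were adjusted by Benjamini-Hochberg over the 10647 genes that reached 1 RPKM in at least 2 libraries. A call needed an adjusted p under 0.05 and a log2 change of at least 1 in size. The procedure was tested on simulated data. The clusters and colonies were not tested. Where a comparison or an alternative left 1 library in an arm, its spread was assumed to be that of the other groups. Errors are standard errors of log2 changes and standard deviations of RPKM. The genes and lists were chosen with earlier results of these data known. Beyond the 6 genes, the text names per list up to 3 called genes per direction with the smallest p and, for single libraries, up to 2 genes per list with the largest difference at 5 RPKM or more. Fgfr4, Klb, Fgf3, Gnb1, Canx, Sox2, Tdgf1, Utf1, Kdr, Otx2, Krt5 and Foxa2 were named after their values were seen. The planned ratio of Fgfr1 to Fgfr2 was not computed, and some listed genes are not reported here. Alternatives covered pseudocount, filter, scaling, libraries, length term, block, variance model and each replicate.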

Additional observations from a re-analysis of the deposited data

How the results depend on the processing

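Fgf4 and Dusp9 in ESC against MEF, and Fgf4 and Dusp6 in ESC against GFP-negative cells, were called in 22 of 22 alternatives each. Spry4 in ESC against GFP-negative cells lost its call in 15 of 22 (limma adjusted p 0.0468 to 0.314). Where no test was passed, the sign could turn. In ESC against MEF, Spry4 was −0.030 with quantile normalization, −0.057 with size factors and −0.087 with the 7 exact-zero libraries, and −0.28 (without ESC 1) to 0.21 when libraries were left out, with −0.24 without MEF 3. Spry2 was −0.43 with the exact-zero libraries and, with libraries left out, ran from −0.41 (without MEF 3) to 0.20 (without MEF 1), with 0.11 without MEF 2 and 0.15 without ESC 1, and Dusp6 with libraries left out from −0.35 to 0.061 (without ESC 3). The ratio of Spry2 to Spry4, ESC minus MEF, ran from −0.60 (without ESC 2) to 0.62 (without ESC 1), with 0.07 without MEF 3.

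With a pseudocount of 0.1 the called genes numbered 2590 in place of 1695 (ESC against MEF), 1391 in place of 811 (GFP-negative against MEF), 3861 in place of 2415 (ESC against GFP-negative) and 3 in place of 17 (CiPSC against ESC). In GFP-negative against MEF there were 533 with the gene-span libraries alone, 376 without the length term and 503 with the exact-zero libraries, and 1, 1 and 0 of the described genes were called. Leaving out libraries gave 496 (without either CiPSC line) to 1457 (without GFP-negative 2), with 540 without GFP-negative 1, and 0 (without MEF 1) to 2 described genes. Fgf4 ran from −0.00048 (without GFP-negative 2) to 2.66 (without GFP-negative 1, which leaves the library that holds Fgf4 alone in its arm), and Spry4 was called with size factors (1.53, limma adjusted p = 0.0486). In CiPSC against ESC 50 genes were called without a filter, 4 with 1 RPKM in 3 libraries, 29 with size factors, 165 with 1 described gene in the exonic libraries alone, 9 without the length term, 9 without the variance trend, and 3 (without either CiPSC line) to 43 (without ESC 3). Without the length term, a fit that joins gene-span and exonic ESC values in a single mean, Fgf4 was −0.51 and Spry4 0.036. Neither the exact-zero libraries nor a fit without ESC 4 gives this comparison. The cause of these changes was not tested.

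Replicate numbers did not pair the libraries (r of the difference between replicates 1 and 2 from −0.07 to 0.08). With the replicate block Spry4 in ESC against GFP-negative cells was −0.95 (limma adjusted p = 0.0468), below the size needed, and no other call of the described genes changed. Scaling moved the median of all genes in ESC against GFP-negative from 0.25 to 0.04. Levels under a few reads, such as Fgf4 in the clusters, are limited by depth.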
